A study of Mus musculus with 24 samples.

Results

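The 10 genes described here are the antioxidant transcription factor gene Nfe2l2, its inhibitor Keap1, 6 of their classical targets (Gclc, Gclm, Hmox1, Nqo1, Txnrd1 and Srxn1), the iron uptake receptor gene Tfrc and the lipid enzyme gene Acsl4. They were taken by symbol from 31062 features counted in each library, with earlier results of these data known. All 10 passed the filter on low counts, with 394 to 43502 counts per library. The libraries are poly-A RNA sequencing of ID8 cells, which derive from mouse ovarian surface epithelium and form ovarian tumours, and every group carries the p53-/- genotype. A derivative edited at the interferon-gamma receptor gene Ifngr1 (Ifngr1-KO) and a control derivative labelled sgNTC were each grown in ultra-low attachment (ULA) plates, where cells stay detached, or adherent on regular plates. Either PBS or 100 ng/ml of recombinant mouse interferon-gamma (IFN-gamma) was added for the last 24 hours before harvest, which came 48 hours after seeding. The 8 groups are therefore Ifngr1-KO ULA, Ifngr1-KO adherent, sgNTC ULA and sgNTC adherent, each with IFN-gamma and with PBS, and each holds 3 libraries labelled as biological replicates, so p-values measure the spread between cultures of 1 line. Dead cells were removed from ULA cultures alone, so culture and that step cannot be told apart. Each genotype is 1 derivative line, so the edit and any other difference between the lines cannot be told apart either.

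NRF2, the protein of Nfe2l2, is held in the cytoplasm by KEAP1 and degraded until oxidants or electrophiles modify KEAP1. Freed NRF2 enters the nucleus and pairs with small MAF proteins at antioxidant response elements, short DNA motifs near genes for glutathione synthesis, the thioredoxin system, quinone reduction and heme breakdown. Iron taken up through the transferrin receptor promotes the lipid peroxidation that these enzymes limit, and ACSL4 activates the polyunsaturated fatty acids that enter the phospholipids being oxidised. Because KEAP1 acts on the protein, an mRNA level of Nfe2l2 is not a measure of NRF2 activity, and no protein was measured here.

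The promoter windows of the genes are shown because the antioxidant response element is the sequence through which the targets are thought to respond together. RefSeq windows of GRCm38.p6, from 250 bases before to 50 bases after a transcription start, matched 8 of the 10 genes with 11 windows. The core motif TGACNNNGC, searched on both strands, was found in 4 of these windows, against 12.39% of 32851 RefSeq windows of the same length. The windows with a match are those of Nfe2l2 (chr2:75704614-75704913, minus strand), Gclm (chr3:122245307-122245606, plus strand), the second start of Txnrd1 (chr10:82858956-82859255, plus strand) and Srxn1 (chr2:152105274-152105573, plus strand). The window of Nqo1 (chr8:107403156-107403455, minus strand) has no match and is printed beside them because Nqo1 moved most with culture. Each is written 5′ to 3′ on the strand of the gene, with the match in capitals.
Nfe2l2: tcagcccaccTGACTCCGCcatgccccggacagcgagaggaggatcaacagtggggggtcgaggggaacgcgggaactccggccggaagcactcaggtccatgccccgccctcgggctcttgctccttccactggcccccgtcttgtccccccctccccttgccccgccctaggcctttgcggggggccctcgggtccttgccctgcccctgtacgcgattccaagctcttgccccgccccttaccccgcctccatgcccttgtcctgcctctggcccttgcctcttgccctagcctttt
Gclm: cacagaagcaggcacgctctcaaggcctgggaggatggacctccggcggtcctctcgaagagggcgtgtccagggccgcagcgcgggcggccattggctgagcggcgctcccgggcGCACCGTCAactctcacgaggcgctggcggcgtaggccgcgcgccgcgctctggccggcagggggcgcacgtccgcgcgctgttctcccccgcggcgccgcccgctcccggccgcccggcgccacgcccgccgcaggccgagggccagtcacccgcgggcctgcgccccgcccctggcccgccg
Txnrd1: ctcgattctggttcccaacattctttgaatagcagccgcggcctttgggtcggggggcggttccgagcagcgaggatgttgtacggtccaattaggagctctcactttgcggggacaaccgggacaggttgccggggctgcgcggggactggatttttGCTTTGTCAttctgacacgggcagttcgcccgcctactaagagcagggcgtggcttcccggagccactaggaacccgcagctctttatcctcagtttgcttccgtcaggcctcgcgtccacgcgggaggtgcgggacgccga
Srxn1: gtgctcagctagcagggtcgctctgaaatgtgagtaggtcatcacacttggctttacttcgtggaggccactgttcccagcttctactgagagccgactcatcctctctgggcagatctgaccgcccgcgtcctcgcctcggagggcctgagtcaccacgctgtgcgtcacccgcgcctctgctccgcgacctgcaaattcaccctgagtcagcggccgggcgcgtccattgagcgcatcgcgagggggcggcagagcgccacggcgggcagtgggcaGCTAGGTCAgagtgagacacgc
Nqo1: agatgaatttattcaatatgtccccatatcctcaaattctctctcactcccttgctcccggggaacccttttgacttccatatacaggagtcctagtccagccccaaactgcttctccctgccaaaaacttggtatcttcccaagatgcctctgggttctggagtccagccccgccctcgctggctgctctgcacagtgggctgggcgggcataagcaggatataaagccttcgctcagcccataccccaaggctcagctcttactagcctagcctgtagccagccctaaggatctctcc

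The match reads in the gene's direction in Nfe2l2 and on the opposite strand in Gclm, Txnrd1 and Srxn1. The AP-1 motif TGANTCA was found in the Srxn1 window alone among the 11, at 2 positions that do not overlap its capitals, against 7.81% of all windows. A match describes these letters alone. Gclc and Hmox1 are not shown.

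Libraries held 33494774 to 63154942 counts. Levels are CPM, the counts of a gene relative to its library's total, scaled by TMM, and a gene is called higher or lower at an adjusted p under 0.05 in edgeR's quasi-likelihood test over the 14622 genes tested. Ifngr1 itself measured 13.3 to 17 CPM in the Ifngr1-KO libraries, against 31.7 to 48.1 CPM in the sgNTC libraries. Of 9 markers of the ovarian surface epithelium and mesothelium, Krt8, Krt18, Krt19, Wt1, Msln and Upk1b were at 39.6 CPM or more in every library, while Krt7, Upk3b and Lrrn4 stayed at 8.6 CPM or less. Of 6 macrophage markers, Cd68 reached 23.4 CPM and the other 5 stayed at 0.611 CPM or less. That list summed to 13.6 to 23.5 CPM in Ifngr1-KO ULA and 5.33 to 7.65 CPM in Ifngr1-KO adherent libraries, and to 5.53 to 7.82 CPM in sgNTC ULA and 2.11 to 3.52 CPM in sgNTC adherent libraries. Of 5 fibroblast and pericyte markers only Dcn exceeded 0.507 CPM, at 89.3 to 98.8 CPM in ULA and 15.2 to 60.2 CPM in adherent libraries, the lymphocyte, endothelial and erythroid lists summed to 5.2 CPM or less, and Lum, Cd3e, Nkg7, Hba-a1 and Hbb-bs were at 0. Mitochondrially encoded transcripts took 3.31% to 3.87% of counts in Ifngr1-KO ULA and 1.96% to 2.45% in Ifngr1-KO adherent libraries, and 5.09% to 6.12% in sgNTC ULA and 2.49% to 2.94% in sgNTC adherent libraries. The part of these shifts in the results was not tested. Library 2 of Ifngr1-KO ULA IFN-gamma and library 3 of Ifngr1-KO adherent PBS stood apart from their replicates, with a chi-square per gene of 20.91 to 27.52 against them where the remaining pairs of those groups had 7.94 and 7.75. The comparisons that use them were also fitted without them, a choice made after the data were seen. The culture difference computed in IFN-gamma libraries, given below, was not.

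In RPKM, the CPM per kilobase of counted exon, which allows levels of different genes to be compared, Hmox1 averaged 155 RPKM over the 8 groups, Acsl4 136 RPKM and Tfrc 79.7 RPKM. Nfe2l2 averaged 61.6 RPKM and its inhibitor Keap1 8.74 RPKM, the lowest of the 10. Txnrd1 averaged 37.9 RPKM, Gclc 34 RPKM and its partner subunit Gclm 11.7 RPKM, with Srxn1 at 21.7 RPKM and Nqo1 at 21.6 RPKM. The genes differed in how far their group means spread. The highest group mean of Nqo1 was 4.26 times its lowest, that of Txnrd1 2.6 times, of Hmox1 2.05 times, of Gclc 2.04 times and of Srxn1 2 times. Nfe2l2 spread 1.7 times and Tfrc 1.48 times, and Keap1, Acsl4 and Gclm spread 1.28, 1.25 and 1.24 times. Against this, the replicate coefficient of variation within a group ran up to 31.2% for Hmox1 and only to 5.32% for Acsl4.

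**Figure D1:**
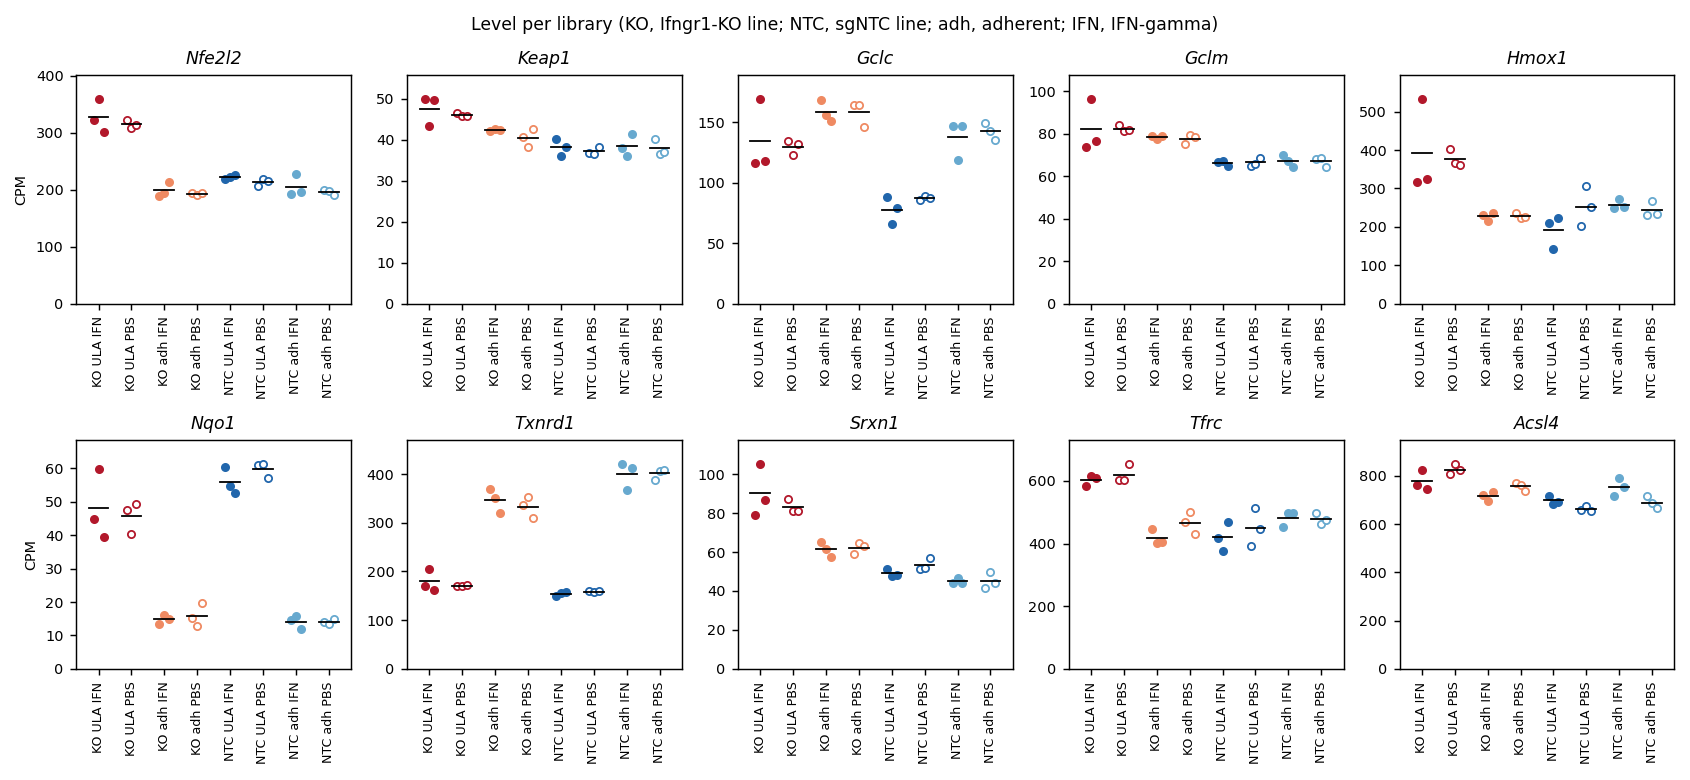
CPM (linear axis from 0) of each gene in each of the 24 libraries, in 8 groups of 3. Points are libraries, filled for IFN-gamma and open for PBS, and bars are group means. Nqo1 is high in the 4 ULA groups, Txnrd1 is high in the 4 adherent groups, and Nfe2l2 and Tfrc are highest in the Ifngr1-KO ULA groups, where library 2 with IFN-gamma has the highest Hmox1 level, 533 CPM.

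Detachment was addressed by comparing ULA with adherent cultures of the same line and treatment. In Ifngr1-KO cells in PBS, 7 of the 10 genes were higher in ULA and 2 lower, against a background of 60.7% of all genes called in either direction, 29.6% higher and 31.1% lower. With IFN-gamma, 7 were higher and 1 lower, beside 60.2% of all genes, 29.3% higher and 30.9% lower. In sgNTC cells 2 were higher and 2 lower in PBS, beside 64.6% of all genes (32.5% higher and 32.1% lower), and 1 was higher and 4 lower with IFN-gamma, again beside 64.6% (32.6% higher and 32% lower). The comparison of 10 genes, chosen with earlier results of these data known, with the background is a description. With 1 library left out, 7 to 8 of them were called in Ifngr1-KO cells and 3 to 5 in sgNTC cells, under either treatment. The median log2 fold change of the 10 genes was 0.30 in Ifngr1-KO and -0.02 in sgNTC cells in PBS, beside -0.00 and 0.03 over all genes tested. Without the libraries that stand apart, the Ifngr1-KO log2 fold changes in PBS and with IFN-gamma were 0.71 and 0.65 for Nfe2l2, 0.22 and 0.23 for Keap1, 0.36 and 0.51 for Tfrc, -1.01 and -1.06 for Txnrd1 and 1.72 and 1.51 for Nqo1, all called. These are bulk libraries, in which fewer cells of a kind and less RNA per cell cannot be told apart.

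Nqo1, which encodes a quinone reductase, changed most. In PBS it measured 47.4, 40.5 and 49.4 CPM in Ifngr1-KO ULA libraries, against 15.1, 12.8 and 19.7 CPM in Ifngr1-KO adherent libraries. In the sgNTC line it measured 61.1, 61.2 and 57 CPM in ULA, against 14, 13.4 and 14.9 CPM in adherent libraries. Every ULA library lay above every adherent library in both lines. The fold was 2.89 in Ifngr1-KO (log2 1.53 ± 0.15 SE, adjusted p = 4.58e-09) and 4.24 in sgNTC cells (log2 2.08 ± 0.15 SE, adjusted p = 2.3e-11). With IFN-gamma the log2 fold changes were 1.69 and 1.99, also called. Without library 3 of Ifngr1-KO adherent PBS, the highest of the adherent values, the Ifngr1-KO log2 fold change in PBS was 1.74.

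Txnrd1, the cytosolic thioredoxin reductase that keeps thioredoxin reduced, went the other way. In PBS it measured 170, 170 and 173 CPM in Ifngr1-KO ULA libraries, against 336, 354 and 309 CPM in Ifngr1-KO adherent libraries. In sgNTC cells it measured 160, 157 and 159 CPM in ULA, against 388, 407 and 409 CPM in adherent libraries. The groups did not overlap, and ULA replicates lay within a few CPM of each other. The log2 fold changes were -0.96 ± 0.07 SE in Ifngr1-KO (adjusted p = 1.82e-14) and -1.34 ± 0.07 SE in sgNTC cells (adjusted p = 2.56e-18), and with IFN-gamma -0.95 and -1.37. Nqo1 and Txnrd1 thus differed between ULA and adherent cultures in opposite directions in all 4 comparisons, although both are listed as NRF2 targets. Of their promoter windows printed above, that of the second Txnrd1 start holds the core motif and that of Nqo1 does not. The windows of the other Txnrd1 starts, not printed, hold no match either. Sequence outside the windows was not searched, and a link between the motif and the direction of change was not tested.

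Srxn1, sulfiredoxin, which repairs overoxidised peroxiredoxins, was higher in ULA in the Ifngr1-KO line. It measured 87.1, 80.9 and 81.1 CPM in Ifngr1-KO ULA PBS libraries, against 58.8, 64.7 and 63 CPM in Ifngr1-KO adherent PBS libraries (log2 0.42 ± 0.08 SE, adjusted p = 1.49e-05). With IFN-gamma the log2 fold change was 0.55 (adjusted p = 1.3e-07), and without the libraries that stand apart it was 0.43 under either treatment. In sgNTC PBS cultures it measured 51.5, 51.6 and 56.8 CPM in ULA, against 41.5, 49.8 and 44.2 CPM in adherent libraries (log2 0.24 ± 0.08 SE, adjusted p = 0.00762). That smaller difference was not called without library 1 of sgNTC adherent PBS (log2 0.18, adjusted p = 0.0742) or without library 3 of sgNTC ULA PBS (log2 0.19, adjusted p = 0.0532). With IFN-gamma it was 0.12 in sgNTC cells (adjusted p = 0.168).

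Of the 2 subunits of glutamate-cysteine ligase, which makes the first bond of glutathione, the catalytic Gclc was lower in ULA and the modifier Gclm was not called. Gclc measured 85.5, 88.6 and 87.6 CPM in sgNTC ULA PBS libraries, against 149, 143 and 135 CPM in sgNTC adherent PBS libraries (log2 -0.71 ± 0.12 SE, adjusted p = 4.72e-05), and with IFN-gamma its log2 fold change was -0.83 (adjusted p = 8.17e-06). In the Ifngr1-KO line it measured 134, 123 and 132 CPM in ULA PBS, against 164, 164 and 146 CPM in adherent PBS libraries, a log2 fold change of -0.29 ± 0.12 SE. That value passed narrowly (adjusted p = 0.0461) and was not called after leaving out any 1 of the 6 libraries: the adjusted p was 0.153, 0.153 and 0.0549 without adherent libraries 1, 2 and 3, and 0.08, 0.157 and 0.0918 without ULA libraries 1, 2 and 3. With IFN-gamma the Ifngr1-KO libraries held 116, 169 and 118 CPM in ULA, against 168, 156 and 151 CPM in adherent cultures. The ULA library at 169 CPM is library 2, which stood apart. With it the log2 fold change was -0.24 (adjusted p = 0.0995), and without that library alone it was -0.41 (adjusted p = 0.000423). Gclm stayed between 64.4 and 96.4 CPM in all 24 libraries, with log2 fold changes from ULA over adherent of -0.02 to 0.08 and 95% intervals within -0.16 and 0.22.

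Hmox1, heme oxygenase 1, which frees iron from heme, measured 403, 367 and 362 CPM in Ifngr1-KO ULA PBS libraries, against 235, 224 and 225 CPM in Ifngr1-KO adherent PBS libraries (log2 0.73 ± 0.19 SE, adjusted p = 0.00305). With IFN-gamma it measured 317, 533 and 326 CPM in ULA, against 231, 215 and 237 CPM in adherent libraries. The groups did not overlap under either treatment, and the value with IFN-gamma depends in size on library 2: the log2 fold change was 0.78 with it and 0.50 without the libraries that stand apart, called both ways. The value in PBS was 0.72 without them. In sgNTC PBS cultures Hmox1 measured 201, 307 and 251 CPM in ULA, against 232, 268 and 233 CPM in adherent libraries, overlapping groups with a log2 fold change of 0.05 (95% interval -0.35 to 0.45). With IFN-gamma the sgNTC value was -0.43 (adjusted p = 0.058), and it was called at -0.55 without library 3 of sgNTC ULA IFN-gamma (adjusted p = 0.0354). It was also called without the filter on low counts (-0.455, adjusted p = 1.87e-14), and the cause of that small p-value was not tested.

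Nfe2l2 measured 322, 309 and 313 CPM in Ifngr1-KO ULA PBS libraries, against 194, 190 and 195 CPM in Ifngr1-KO adherent PBS libraries. The fold was 1.63 (log2 0.71 ± 0.06 SE, adjusted p = 1.3e-12), and with IFN-gamma it was 1.65. In sgNTC PBS cultures it measured 206, 219 and 215 CPM in ULA, against 199, 197 and 191 CPM in adherent libraries. These groups did not overlap, yet the log2 fold change of 0.13 ± 0.06 SE missed the threshold (adjusted p = 0.0598), and it was called without library 1 of sgNTC ULA PBS (log2 0.16, adjusted p = 0.034). With IFN-gamma the sgNTC value was 0.12 (adjusted p = 0.0875), called without library 2 of sgNTC adherent IFN-gamma (log2 0.22, adjusted p = 0.00149). Of 14 alternatives, 7 called the sgNTC value in PBS and 5 that with IFN-gamma. DESeq2 called both (0.16 and 0.15, adjusted p = 0.0216 and 0.0367), so the lack of a call in the sgNTC line depends on the fit. Without TMM scaling, which shifts the median of all genes in the sgNTC comparisons by 0.10 in PBS and 0.12 with IFN-gamma, the Nfe2l2 values in sgNTC cells were 0.22 and 0.23, both called.

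Keap1, whose counted exons overlap a predicted gene on the opposite strand in data counted without strand, showed small differences. It measured 46.5, 45.8 and 45.8 CPM in Ifngr1-KO ULA PBS libraries, against 40.7, 38.2 and 42.6 CPM in Ifngr1-KO adherent PBS libraries (log2 0.18 ± 0.07 SE, adjusted p = 0.0198), which was not called without library 2 of the adherent group (0.17, adjusted p = 0.062). With IFN-gamma its log2 fold change of 0.17 was called (adjusted p = 0.0298), but not without ULA library 1 (0.13, adjusted p = 0.142) or ULA library 3 (0.17, adjusted p = 0.0597). In sgNTC cells it was -0.03 in PBS and -0.01 with IFN-gamma, neither called.

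Tfrc, the receptor that brings transferrin-bound iron into the cell, measured 604, 603 and 653 CPM in Ifngr1-KO ULA PBS libraries, against 468, 500 and 432 CPM in Ifngr1-KO adherent PBS libraries (log2 0.41 ± 0.08 SE, adjusted p = 6.01e-05). With IFN-gamma it measured 583, 616 and 611 CPM in ULA, against 446, 403 and 405 CPM in adherent libraries (log2 0.53, adjusted p = 1.68e-06). The groups did not overlap under either treatment. In sgNTC PBS cultures it measured 392, 514 and 447 CPM in ULA, against 498, 463 and 475 CPM in adherent libraries, a log2 fold change of -0.09 that was not called (adjusted p = 0.344), although it was without ULA library 2 (-0.19, adjusted p = 0.0229). With IFN-gamma the sgNTC value of -0.19 passed (adjusted p = 0.0337) although the groups overlap. It was not called without ULA libraries 1 or 2 (-0.19 and -0.12, adjusted p = 0.0755 and 0.191) or without adherent libraries 2 or 3 (-0.15 and -0.14, adjusted p = 0.16 and 0.163).

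Acsl4, which loads polyunsaturated fatty acids such as arachidonate onto coenzyme A, changed little and lay between 653 and 848 CPM in all 24 libraries. In Ifngr1-KO cells its log2 fold change in ULA was 0.13 in PBS (adjusted p = 0.0223) and 0.12 with IFN-gamma (adjusted p = 0.0355). Without the libraries that stand apart neither was called (0.10, adjusted p = 0.0598, and 0.07, adjusted p = 0.216), and the value with IFN-gamma was also not called without ULA library 2 alone (0.09, adjusted p = 0.0993). In sgNTC cells it was -0.06 in PBS, not called, and -0.11 with IFN-gamma (adjusted p = 0.0441). The last value was not called without adherent libraries 2 or 3 (-0.05 and -0.08, adjusted p = 0.418 and 0.189) or ULA libraries 2 or 3 (-0.10 each, adjusted p = 0.103 and 0.0985), and without TMM scaling it was 0.01.

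**Figure D2:**
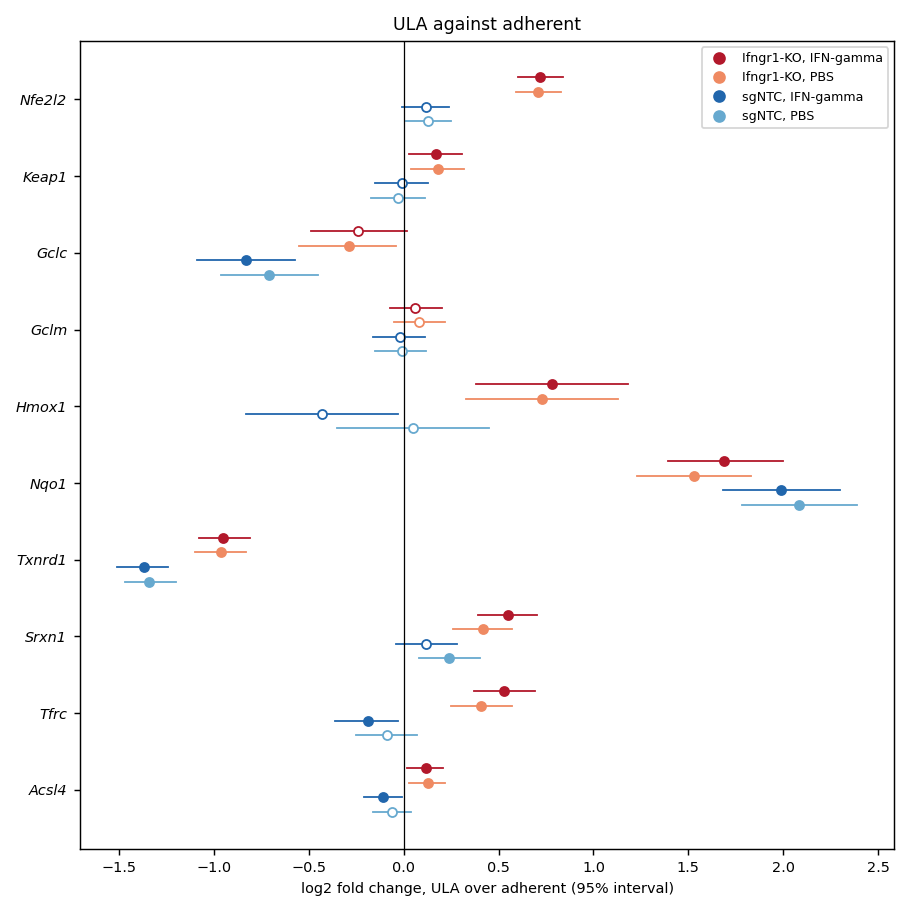
Log2 fold change of ULA over adherent cultures with its 95% interval, for the 10 genes in each line and treatment. Filled points are called at an adjusted p under 0.05. Nqo1 lies right of 0 and Txnrd1 left of 0 in all 4 comparisons, while Nfe2l2, Hmox1 and Tfrc lie right of 0 in both Ifngr1-KO comparisons and near or left of 0 in the sgNTC line.

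Whether the culture effect differed between the lines was tested as the ULA-over-adherent log2 fold change of Ifngr1-KO minus that of sgNTC cells in PBS. This difference was positive and called for 4 of the 10 genes and negative and called for 1, beside 27.8% of all genes, 16.6% positive and 11.2% negative. It was 0.58 ± 0.08 SE for Nfe2l2 (adjusted p = 1.7e-06), 0.50 ± 0.11 SE for Tfrc (adjusted p = 0.00124), 0.38 ± 0.09 SE for Txnrd1 (adjusted p = 0.00232) and 0.18 ± 0.07 SE for Acsl4 (adjusted p = 0.0372). Txnrd1 was therefore lower in ULA by less in the Ifngr1-KO line than in the sgNTC line. For Nqo1 it was -0.55 ± 0.20 SE, a smaller increase in the Ifngr1-KO line that passed narrowly (adjusted p = 0.0479). The Nqo1 difference was lost on leaving out any 1 of its 12 libraries other than Ifngr1-KO adherent library 2, without which it was -0.67 (adjusted p = 0.0128). In the other cases the adjusted p ran from 0.0519 without Ifngr1-KO ULA library 3 to 0.183 without Ifngr1-KO adherent library 3, where the difference was -0.35. In the fit without the libraries that stand apart it was -0.37 (adjusted p = 0.0448). The Acsl4 difference was 0.09 without TMM scaling (adjusted p = 0.281) and was not called without the filter on low counts (adjusted p = 0.053). It was also not called without sgNTC adherent library 1 (0.16, adjusted p = 0.109) or Ifngr1-KO ULA library 2 (0.18, adjusted p = 0.0599), nor without the libraries that stand apart (0.16, adjusted p = 0.0515). Gclc at 0.41 (adjusted p = 0.0837), Hmox1 at 0.68 (adjusted p = 0.0716), Keap1 at 0.21 (adjusted p = 0.0995), Srxn1 at 0.18 (adjusted p = 0.242) and Gclm at 0.10 (adjusted p = 0.497) were not called, but Hmox1 was called without sgNTC ULA library 2 (0.86, adjusted p = 0.0275) and Keap1 without Ifngr1-KO adherent library 3 (0.27, adjusted p = 0.0445). Hmox1 was also called with DESeq2 (adjusted p = 0.0426), with the compared groups fitted alone (0.0129) and without the filter on low counts (1.49e-15). Gclc was called with the compared groups alone (adjusted p = 0.000152) and without the filter (2.21e-05). Why the fit without the filter gave such small p-values was not tested. Without the libraries that stand apart, Keap1, Gclc and Hmox1 were called as well, at 0.25, 0.36 and 0.67 (adjusted p = 0.0455, 0.032 and 0.0432), and Nfe2l2, Tfrc and Txnrd1 were called at 0.59, 0.44 and 0.32.

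The same difference was computed in the IFN-gamma libraries, a computation added after the data were seen. It was called for 7 of the 10 genes, beside 32.3% of all genes. Its group means use none of the PBS libraries, but the filter, the scaling and the spread behind its p-values came from the fit to all 24 libraries. The calls with PBS and with IFN-gamma are therefore not independent. The difference with IFN-gamma was 0.61 for Nfe2l2, 0.72 for Tfrc, 0.42 for Txnrd1 and 0.22 for Acsl4. These 4 were called with the same sign in both sets of libraries. Gclc (0.59), Hmox1 (1.21) and Srxn1 (0.42) were called as well. This difference was not refitted without Ifngr1-KO ULA IFN-gamma library 2, which stood apart. That library held 169 CPM of Gclc, 533 CPM of Hmox1 and 105 CPM of Srxn1, the highest of its group. In the Ifngr1-KO line with IFN-gamma, leaving out the libraries that stand apart moved ULA over adherent from -0.24 to -0.44 for Gclc. The same fit gave 0.50 against 0.78 for Hmox1 and 0.43 against 0.55 for Srxn1. In the PBS libraries the calls of Gclc and Hmox1 depended on the fit, as given above, and whether the difference itself changed with treatment was not tested. Nqo1 was not called there (-0.30, adjusted p = 0.294).

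The lines were also compared directly within each culture. In ULA cultures, 8 of the 10 genes were higher and 1 lower in Ifngr1-KO than in sgNTC cells in PBS, beside 50.1% of all genes called in either direction, 24.5% higher and 25.6% lower. With IFN-gamma 9 were higher and none lower, beside 54.8% called either way, 27.6% higher and 27.2% lower. In adherent cultures the counts were 3 higher and 1 lower in PBS, beside 43.9% of all genes (20.1% higher and 23.9% lower), and 2 higher and 2 lower with IFN-gamma, beside 43.3% (20.2% higher and 23.1% lower). The median log2 fold change of the 10 genes was 0.39 in ULA PBS and 0.11 in adherent PBS cultures, against -0.02 and -0.01 over all genes. With both libraries that stand apart left out, Nfe2l2, Keap1, Gclc and Tfrc were higher in ULA IFN-gamma cultures by 0.49, 0.39, 0.59 and 0.50, and in adherent PBS cultures Srxn1, Gclm and Acsl4 by 0.45, 0.21 and 0.16 while Txnrd1 was lower by -0.22, all called. These comparisons use the same libraries as those of culture and add no separate evidence on the interplay of line and culture.

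Srxn1 and Gclm were higher in the Ifngr1-KO line in all 4 settings. Srxn1 measured 58.8, 64.7 and 63 CPM in Ifngr1-KO adherent PBS libraries, against 41.5, 49.8 and 44.2 CPM in sgNTC adherent PBS libraries (log2 0.46 ± 0.08 SE, adjusted p = 9.16e-06). In ULA PBS libraries it was higher by 0.64 (adjusted p = 1.29e-08), and the 3 Ifngr1-KO values lay above the 3 sgNTC values in all 4 settings. Gclm measured 75.4, 79.4 and 78.3 CPM in Ifngr1-KO adherent PBS libraries, against 68.3, 68.5 and 64.4 CPM in sgNTC adherent PBS libraries (log2 0.21 ± 0.07 SE, adjusted p = 0.00888), and its log2 fold changes in the other settings were 0.22 to 0.31, all called. Without the libraries that stand apart the value in ULA IFN-gamma was 0.76 for Srxn1 and 0.19 for Gclm, where it was 0.88 and 0.31 with them.

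Nfe2l2, Keap1, Gclc, Hmox1 and Tfrc were called higher in the Ifngr1-KO line in ULA cultures under both treatments, and none of them was called higher in adherent cultures. Nfe2l2 measured 322, 309 and 313 CPM in Ifngr1-KO ULA PBS libraries, against 206, 219 and 215 CPM in sgNTC ULA PBS libraries (log2 0.56 ± 0.06 SE, adjusted p = 8.51e-10), while its adherent log2 fold change was -0.02 with a 95% interval of -0.14 to 0.10. Gclc measured 134, 123 and 132 CPM in Ifngr1-KO ULA PBS libraries, against 85.5, 88.6 and 87.6 CPM in sgNTC ULA PBS libraries (log2 0.57 ± 0.12 SE, adjusted p = 0.000709). In adherent cultures its values of 0.15 in PBS and 0.20 with IFN-gamma were called when the compared groups were fitted alone (0.16 and 0.21, adjusted p = 0.0343 and 0.0267). Hmox1 had a fold of 1.49 in ULA PBS (adjusted p = 0.0177), which was not called without library 1 of sgNTC ULA PBS (log2 0.47, adjusted p = 0.0718). With IFN-gamma the Hmox1 fold was 2.05 (adjusted p = 0.000186), and its log2 value of 1.03 was 0.75 without library 2 of the Ifngr1-KO group and the other library that stood apart. Tfrc was higher in ULA by 0.46 in PBS (adjusted p = 2.14e-05) and 0.52 with IFN-gamma, and Keap1 by 0.31 and 0.32. In adherent cultures Tfrc was lower by -0.21 with IFN-gamma (adjusted p = 0.0358), which was not called without Ifngr1-KO libraries 2 or 3 or sgNTC libraries 2 or 3 of that comparison (adjusted p from 0.142 to 0.149). In the same adherent IFN-gamma comparison Keap1 was called without sgNTC library 3 (0.21, adjusted p = 0.026).

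Txnrd1 was lower in the Ifngr1-KO line when adherent, by -0.27 ± 0.07 SE in PBS (adjusted p = 0.00108) and -0.21 with IFN-gamma (adjusted p = 0.0108). The second value was not called without Ifngr1-KO library 3 (-0.14, adjusted p = 0.13) or sgNTC libraries 1 or 3 (-0.17 and -0.16, adjusted p = 0.0689 and 0.0764). In ULA cultures Txnrd1 was 0.11 in PBS, not called, and 0.22 with IFN-gamma (adjusted p = 0.0059), which was 0.11 and not called without the libraries that stand apart (adjusted p = 0.0987). Nqo1 was lower in Ifngr1-KO ULA PBS libraries, at 47.4, 40.5 and 49.4 CPM against 61.1, 61.2 and 57 CPM in sgNTC ULA PBS libraries (log2 -0.39 ± 0.14 SE, adjusted p = 0.0226). That call was lost without Ifngr1-KO libraries 1 or 2 (adjusted p = 0.0603 and 0.159) or any of the sgNTC libraries (adjusted p = 0.0503 to 0.0939). With IFN-gamma it was -0.22 (adjusted p = 0.186), and -0.35 and called without Ifngr1-KO library 2 (adjusted p = 0.0207). Acsl4 was higher by 0.32 in ULA PBS (adjusted p = 7.35e-07), 0.14 in adherent PBS (adjusted p = 0.0202) and 0.15 in ULA IFN-gamma cultures (adjusted p = 0.00669). The last was not called without the libraries that stand apart (0.11, adjusted p = 0.0509) or without TMM scaling (0.085, adjusted p = 0.0899). In adherent IFN-gamma cultures Acsl4 was -0.07 and not called (adjusted p = 0.235).

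**Figure D3:**
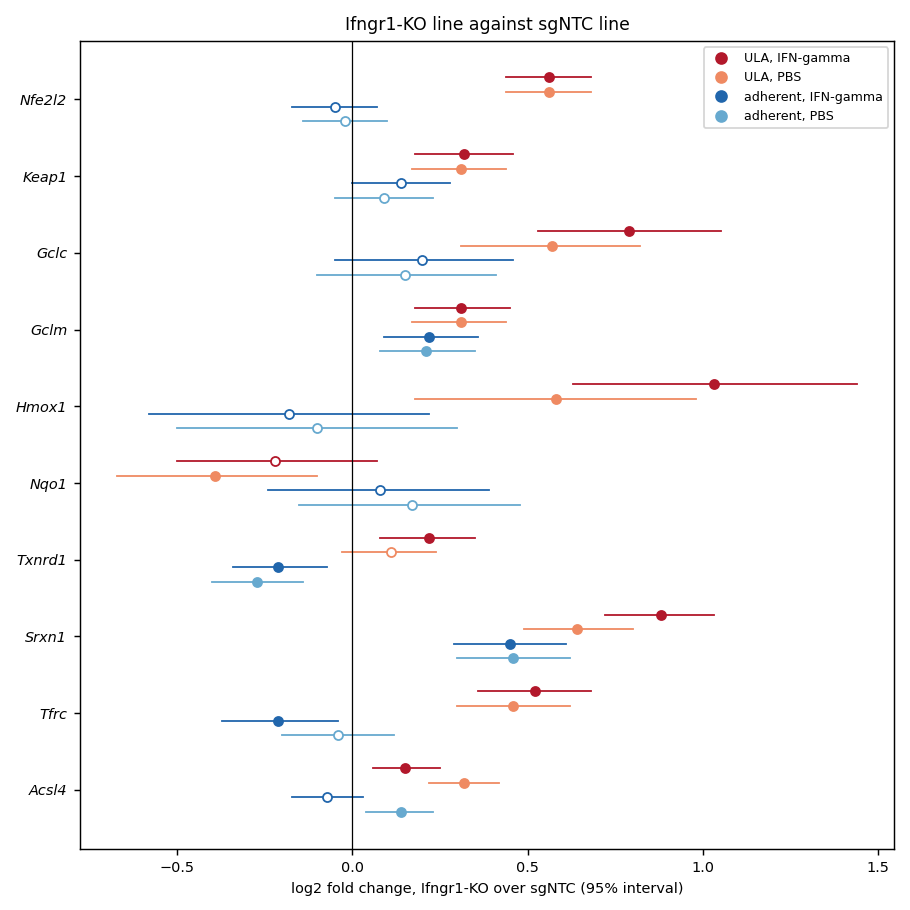
Log2 fold change of the Ifngr1-KO line over the sgNTC line with its 95% interval, for the 10 genes in each culture and treatment. Filled points are called at an adjusted p under 0.05. Srxn1 and Gclm are filled right of 0 in all 4 settings, and Nfe2l2 and Tfrc are filled right of 0 in ULA cultures, at 0.46 to 0.56.

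IFN-gamma for 24 hours did not lead to a call for any of the 10 genes in either line or culture. In edgeR's test, 0% of all genes were called in Ifngr1-KO ULA and 0.00684% in Ifngr1-KO adherent cultures, against 2.05% in sgNTC ULA cultures (1.31% higher and 0.739% lower) and 0.315% in sgNTC adherent cultures (0.294% higher and 0.0205% lower). At an unadjusted p under 0.05, 0 of the 10 genes passed in Ifngr1-KO ULA, 0 in Ifngr1-KO adherent, 1 in sgNTC ULA and 1 in sgNTC adherent cultures, and DESeq2 also called 0 of them in all 4. The intervals bound what these data allow. In the Ifngr1-KO line the log2 fold changes ran from -0.09 to 0.12 in ULA and from -0.16 to 0.07 in adherent cultures, with 95% intervals within -0.35 and 0.45 and within -0.40 and 0.40. Leaving out the libraries that stand apart, they ran from -0.23 (Hmox1) to 0.12 (Keap1) in ULA and from -0.21 (Tfrc) to 0.10 (Keap1) in adherent Ifngr1-KO cultures, none called. In sgNTC ULA cultures they ran from -0.40 to 0.08, with intervals within -0.81 and 0.18. In sgNTC adherent cultures they ran from -0.05 to 0.13, with intervals within -0.33 and 0.48. The value farthest from 0 is that of Hmox1 in sgNTC ULA cultures, with 211, 141 and 222 CPM with IFN-gamma, against 201, 307 and 251 CPM with PBS (log2 -0.40, 95% interval -0.81 to -0.00, adjusted p = 0.377). These groups overlap. Acsl4 in sgNTC adherent cultures measured 715, 792 and 754 CPM with IFN-gamma, against 715, 686 and 668 CPM with PBS (log2 0.13 ± 0.05 SE, adjusted p = 0.472). Without the filter on low counts Hmox1 in sgNTC ULA cultures was -0.43 and called (adjusted p = 1.55e-11).

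**Figure D4:**
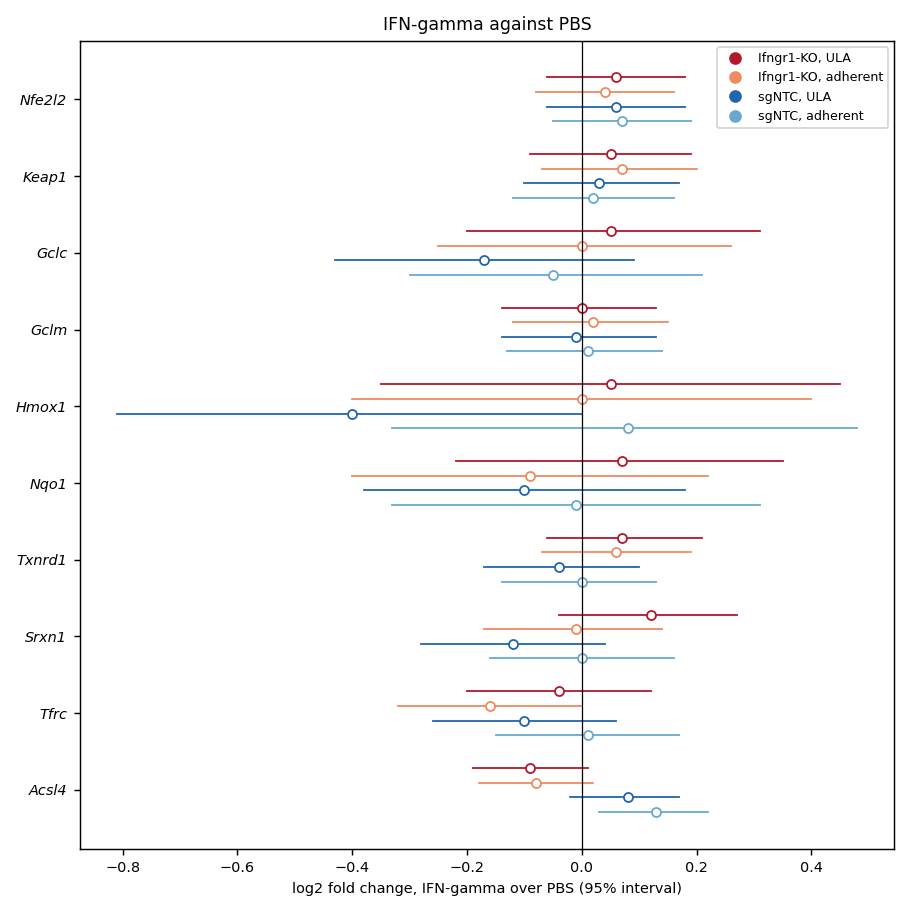
Log2 fold change of IFN-gamma over PBS with its 95% interval, for the 10 genes in each line and culture. All points are open, so none is called, and they lie between -0.40 (Hmox1, sgNTC ULA) and 0.13 (Acsl4, sgNTC adherent).

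The IFN-gamma response was compared between cultures and between lines as well, and 0 of the 10 genes were called by edgeR in the 3 differences, beside 0.0479% of all genes for ULA minus adherent in the sgNTC line, 0.13% for Ifngr1-KO minus sgNTC in adherent (0.0342% positive and 0.0957% negative) and 1.33% in ULA cultures (0.54% positive and 0.793% negative). The difference with the smallest p was that of Acsl4 between the lines in adherent cultures, -0.21 ± 0.07 SE (adjusted p = 0.203), the only one of the 10 with an unadjusted p under 0.05 there. Between the lines in ULA cultures 2 of the 10 had one, Srxn1 at 0.23 (adjusted p = 0.312) and Acsl4 at -0.17 (adjusted p = 0.226). In the difference between cultures 0 of the 10 genes reached that level. Without the filter on low counts Hmox1 was called in the differences between cultures and between lines in ULA (-0.51 and 0.49). DESeq2 called 0 of the 10 in each of the 3 differences.

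The wider pathway was described with 7 lists of 111 other genes, written from general knowledge, of which 104 were tested. A large part of them was called for ULA against adherent, as was a large part of all genes. In PBS 48 were higher and 33 lower in ULA in Ifngr1-KO cells, and 40 were higher and 41 lower in sgNTC cells. These counts stand beside the 60.7% and 64.6% of all genes given above. The Ifngr1-KO counts were 49 and 32 without the libraries that stand apart. Across all comparisons that use them, 61 of 64 values of named pathway genes were still called, with shifts of up to 0.42 on the log2 scale. Of 17 genes of conjugation and export, 11 were higher and 4 lower in Ifngr1-KO ULA PBS cultures and 9 higher and 4 lower in sgNTC ULA PBS cultures, with a median log2 fold change of 0.52 and 0.94. Mgst1, a membrane-bound glutathione transferase, averaged 190 CPM in Ifngr1-KO ULA against 18.7 CPM in adherent PBS libraries (log2 3.34 ± 0.09 SE), and 415 against 73.6 CPM in sgNTC libraries (log2 2.49 ± 0.08 SE). Gsta4, a transferase for lipid aldehydes, was higher by 2.01 and 1.81. Nqo1 thus moved in the direction of most of the conjugation genes.

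Of 17 tested genes of glutathione supply and use, 6 were higher and 5 lower in Ifngr1-KO and 7 higher and 6 lower in sgNTC ULA PBS cultures. These counts stand beside 60.7% of all genes called either way in Ifngr1-KO and 64.6% in sgNTC cells. The lower ones included Slc7a11, Cth and Chac1. Slc7a11, the cystine importer, averaged 104 CPM in Ifngr1-KO ULA against 257 CPM in adherent PBS libraries (log2 -1.30 ± 0.17 SE), and 22.8 against 315 CPM in sgNTC libraries (log2 -3.80 ± 0.19 SE). Cth, which makes cysteine from cystathionine, had log2 fold changes of -4.36 in Ifngr1-KO and -4.32 in sgNTC cells, and Chac1, which degrades glutathione, of -3.40 and -5.07. Oplah, which returns 5-oxoproline to glutamate, was higher by 2.34 and 2.24, and the glutaredoxin gene Glrx by 1.74 and 2.30. Gclc was thus lower together with Slc7a11 and Cth, and with Txnrd1, in the sgNTC line.

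The background of the lists that follow is again 60.7% of all genes called either way in Ifngr1-KO and 64.6% in sgNTC cells. Among 14 genes of the thioredoxin system and peroxide removal, 7 were higher and 4 lower in both lines in PBS. Of these, Sesn2, a stress-induced sestrin, was lower by log2 -2.06 in Ifngr1-KO and -2.34 in sgNTC cells. Among 12 NRF2 regulators 4 were higher and 6 lower in Ifngr1-KO and 2 higher and 7 lower in sgNTC ULA PBS cultures. The small MAF gene Mafk averaged 49.5 CPM in Ifngr1-KO ULA against 133 CPM in adherent PBS libraries (log2 -1.42 ± 0.07 SE), while Nfe2l2 was higher in the same cells. Of 22 tested iron genes 9 were higher and 10 lower in Ifngr1-KO and 7 higher and 11 lower in sgNTC ULA PBS cultures, and the mitochondrial iron importer gene Slc25a37 was lower in both lines (log2 -1.80 and -2.50). Of 6 NADPH genes 4 were higher and 1 lower in Ifngr1-KO and 2 higher and 2 lower in sgNTC cells, and of 16 lipid peroxidation genes 7 were higher and 3 lower, and 6 higher and 7 lower. In that list Hspb1, a small heat shock protein, was higher by 3.23 and 2.73, and Ptgs2, cyclooxygenase 2, averaged 404 CPM in sgNTC ULA against 1765 CPM in adherent PBS libraries (log2 -2.13 ± 0.13 SE).

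**Figure D5:**
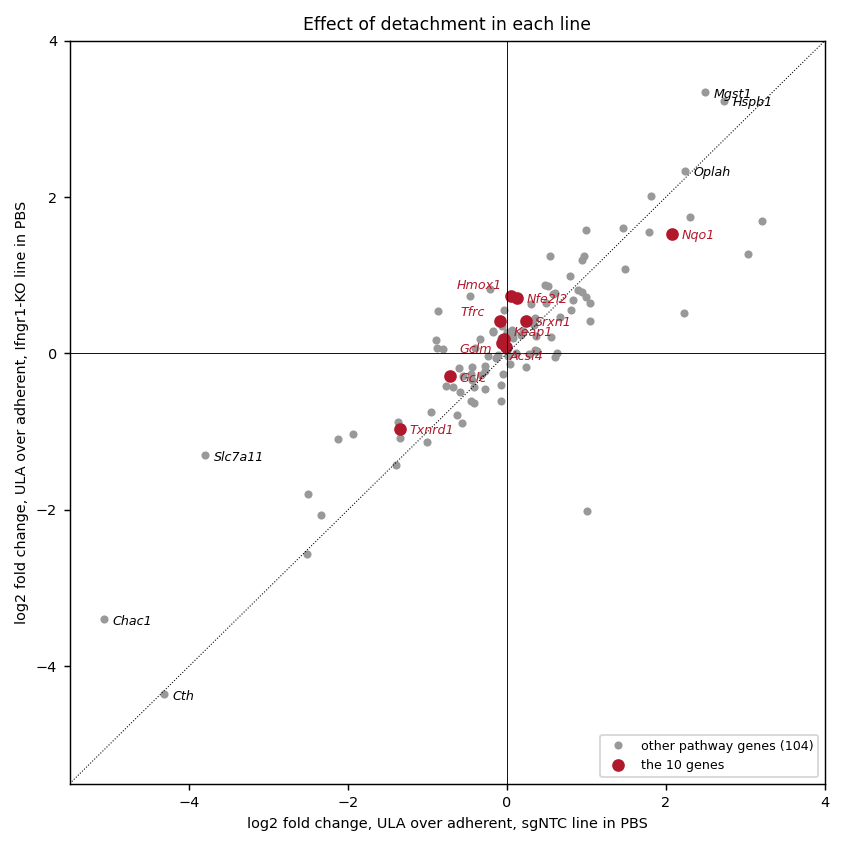
Log2 fold change of ULA over adherent in PBS, in the sgNTC line (x axis) and the Ifngr1-KO line (y axis), for the 10 genes (red) and the 104 other pathway genes tested (grey). The dotted line marks equal change. Nfe2l2, Tfrc and Txnrd1 lie above it, at 0.71, 0.41 and -0.96 on the y axis, and Nqo1 below it, while Slc7a11 and Chac1 are among the genes farthest to the left.

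Between the lines, the pathway genes were called in both directions. In ULA PBS cultures 35 of the 104 genes were higher and 27 lower in the Ifngr1-KO line, with a median log2 fold change of 0.00, beside 24.5% and 25.6% of all genes. In adherent PBS cultures 25 were higher and 40 lower (median -0.06), beside 20.1% and 23.9% of all genes, and 19 and 43 without the libraries that stand apart. The highest in ULA PBS was Slc7a11, at 104 CPM in Ifngr1-KO against 22.8 CPM in sgNTC libraries (log2 2.20 ± 0.18 SE, adjusted p = 1.63e-08), and its partner chain Slc3a2 was higher by 0.90. Abcc4, an exporter of conjugates, was higher by 1.14 in ULA and 0.95 in adherent PBS cultures. Mgst1 was lower in the Ifngr1-KO line, by -1.13 in ULA PBS and -1.98 in adherent PBS cultures, where it averaged 18.7 CPM in Ifngr1-KO against 73.6 CPM in sgNTC libraries. Ggt1, which breaks down extracellular glutathione, was lower by -1.31 in ULA and -1.73 in adherent PBS cultures. The iron and zinc importer gene Slc39a8 and the iron-sensing gene Hfe were lower in ULA PBS (-1.33 and -1.30) and adherent PBS cultures (-1.53 and -0.90).

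By edgeR, IFN-gamma led to a call for 5 of the 104 genes in sgNTC ULA cultures and for 0 in sgNTC adherent cultures, beside the 2.05% of all genes given above. Trim21, an interferon-induced ubiquitin ligase, averaged 20 CPM with IFN-gamma against 12 CPM with PBS (log2 0.73 ± 0.14 SE, adjusted p = 0.00127), and Slc25a37 was higher by 0.32 (adjusted p = 0.0119). The P450 reductase gene Por (-0.33, adjusted p = 0.00378), the epoxide hydrolase gene Ephx1 (-0.24, adjusted p = 0.0272) and the iron chaperone gene Pcbp1 (-0.18, adjusted p = 0.0477) were lower. In Ifngr1-KO cultures edgeR called 0 of the 104, and without the libraries that stand apart 1 in adherent cultures, Pcbp1, whose value of 0.17 became 0.23 (adjusted p = 0.03).

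Among 10011 tested genes outside the 10 that reached 5 CPM in a group, those whose 8 group means of log2 CPM were most like each gene's were found by Pearson's r, a description of 8 points split by the same cultures and lines. For Nqo1 they were Stim1 (0.999) and Tmem176b (0.998), and for Txnrd1 Rpl13 (0.999) and Mvd (0.999). For Nfe2l2 they were Tuba1b (0.994) and Tagln2 (0.993), for Keap1 Ppp2r2d (0.987) and Dolk (0.982), and for Srxn1 Dstn (0.994) and Ap1s1 (0.994). Gclc was closest to Ptar1 and P4hb (0.998 each), and Gclm to Pstpip1 (0.995) and Rrm2 (0.992). Fam83b was listed for both Hmox1 (0.988, with Spred2 at 0.980) and Tfrc (0.980, after Atp6v1a at 0.982), and Acsl4 was closest to Cdkl2 (0.984) and Pdcd10 (0.980).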

How the data were processed

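RNA was sequenced from 24 libraries in 8 groups of 3. The authors deposited unnormalised counts of reads per gene, in a table for each library. The submitters' processing notes name Trimmomatic, HISAT2, SAMtools, Subread 2.1.1 with featureCounts, and DESeq2, and the build GRCm38 (mm10). Per the file headers, featureCounts ran in paired mode with no strand option and no option for counting read pairs. The counts appear to hold both mates of a fragment, since 61.3% to 67.2% of counts from 1 to 20 were even. Symbols were matched for 30934 of 31062 features. The depth of 33494774 to 63154942 counts per library bounds the precision.

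Genes passing filterByExpr (minimum count 10) numbered 14622. One edgeR 4.0.16 model (R 4.3.3) with a mean per group, TMM factors of 0.958 to 1.054 and robust quasi-likelihood dispersion was fitted to all 24 libraries, with 16 residual degrees of freedom and a common biological coefficient of variation of 0.0771. The 16 comparisons were tested two-sided, each adjusted over all genes by the Benjamini-Hochberg method, at 0.05. The fit was tested on simulated data. RPKM was computed from CPM and the counted exon length. Replicate numbers did not pair samples across groups, since correlations of their deviations ran from -0.06 to 0.05. The alternatives were other scalings, other filters, halved counts, the compared groups alone, a replicate block, DESeq2 1.42.0 and leaving out each library. Leaving out the libraries that stand apart and the culture difference in IFN-gamma libraries were added after the data were seen. The genes and the lists were chosen with earlier results of these data known. All 10 genes were tested in each comparison, and a gene not named for a comparison was not called there in the main fit. From the pathway lists, up to 6 called genes each way with a mean of at least 5 CPM were eligible, ranked by log2 fold change, and 2 genes of likest pattern were named per gene.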

Additional observations from a re-analysis of the deposited data

Results flagged for a closer look

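The culture effect in PBS, ULA over adherent, was compared between the lines (Ifngr1-KO minus sgNTC, on the log2 scale). By a test of that difference 5 of the 10 genes were called, beside 27.8% of all genes. They were Nfe2l2 (0.58), Tfrc (0.50), Txnrd1 (0.38), Acsl4 (0.18) and Nqo1 (-0.55). Of 22 alternative computations of this difference, Nqo1 was called in 7 and Acsl4 in 17, while Nfe2l2, Tfrc and Txnrd1 were called in all 22. Among the pathway genes named for this difference, it was positive for Slc7a11 (2.49, adjusted p = 6.33e-07), Chac1 (1.66), Osgin1 (1.42), Maff (1.20), Scd2 (1.06) and Acsl5 (1.04, adjusted p = 1.9e-12), so the fall of Slc7a11 and Chac1 in ULA was smaller in the Ifngr1-KO line. It was negative for Gstm2 (-1.71, adjusted p = 1.85e-05), Ephx1 (-0.64), Btrc (-0.63), Glrx (-0.56), Blvrb (-0.53) and Glrx2 (-0.42, adjusted p = 0.0259). The IFN-gamma response in ULA cultures differed between the lines (Ifngr1-KO minus sgNTC) for Por (0.39, adjusted p = 0.0323), Pcbp1 (0.34), Ggct (-0.67) and Slc25a37 (-0.43). Without the libraries that stand apart, the differences of Glrx (-0.39, adjusted p = 0.0976), Blvrb (-0.39, adjusted p = 0.0847) and Ggct (-0.62, adjusted p = 0.0584) were not called. Calls were also gained in that fit for the difference of the IFN-gamma response between the lines. They were Ireb2 in ULA (-0.27, adjusted p = 0.0375) and Pcbp1 in adherent cultures (0.29, adjusted p = 0.0315).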

How the results depend on the processing

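Of 57 called values of the 10 genes, 41 were called under every alternative, and of 2580 recomputed values 73 lost the call, 47 gained it, 155 changed sign without a call either way and 1 changed sign against a call, Acsl4 for ULA against adherent in sgNTC IFN-gamma cultures (0.008 with library totals in place of TMM, adjusted p = 0.882). With 1 library left out, the number of genes called ran from 3 to 5 in that comparison, from 2 to 4 for Ifngr1-KO against sgNTC in adherent IFN-gamma cultures and from 3 to 5 for the difference of the culture effect between the lines. It ran from 7 to 8 for ULA against adherent in Ifngr1-KO PBS cultures, where 9 were called with all libraries. For Ifngr1-KO against sgNTC in ULA PBS cultures it ran from 7 to 9. Without the filter on low counts, 1 gene, Hmox1, was called for IFN-gamma against PBS in sgNTC ULA cultures, for the difference of that response between cultures and for its difference between lines in ULA; the cause was not tested. With the replicate block, which joins libraries that share only a number, Gclc in Ifngr1-KO PBS (-0.290, adjusted p = 0.0559) and the Nqo1 difference between the lines (-0.552, adjusted p = 0.0659) were not called, and no other call changed. With counts halved, these same values were not called either (-0.266 and -0.539, adjusted p = 0.0624 and 0.0514). For ULA against adherent, halving also lost Acsl4 in sgNTC IFN-gamma cultures (-0.099, adjusted p = 0.0591). It gained Nfe2l2 in sgNTC PBS cultures (0.139, adjusted p = 0.034). Without the filter, 33 and 31 of all genes were called for IFN-gamma in Ifngr1-KO ULA and adherent cultures, against 0 and 1 with it, and 652 and 175 in sgNTC ULA and adherent cultures, against 300 and 46. Leaving out 1 library gave 127 to 346 in sgNTC ULA and 25 to 40 in sgNTC adherent cultures, with 127 without PBS library 2 and 166 without IFN-gamma library 2. DESeq2 called 1 and 25 in Ifngr1-KO ULA and adherent cultures and 445 and 83 in sgNTC ULA and adherent cultures. The lowest count of the 10 genes was 394, so depth left them well above the filter.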
